A study of Mus musculus with 9 samples.

Results

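Apoe and 6 further genes of cellular lipid handling (Abca1, Abcg1, Lpl, Ch25h, Soat1 and Lrp1) were read across sorted mouse brain and spleen cells. The 7 genes were listed by symbol, and each was read from a probe set annotated to that symbol alone. Of the 7, 6 had such a probe set, 1 each, among 19937 genes of the array, and Soat1 was not analysed here. The cells came from wild-type C57BL/6 mice, whose age and sex are not in the labels, and the mice were perfused before the brains were dissected. Brain leukocytes from a Percoll gradient were stained for Ly6C, MHC class II, CD11b, EMR1 and CD45 and sorted. There were 3 arrays of Ly6C-high microglia, labelled MgSCs, 3 of Ly6C-low microglia, labelled bulk microglia cells, and 3 of spleen monocytes. The labels name no treatment, and they do not say whether replicates came from separate mice, so the spread behind each p-value is that of these samples and may be technical. On GRCm38.p6, RefSeq places Apoe on chromosome 7 (19696244 to 19701310), Abca1 on chromosome 4 (53030789 to 53159988), Abcg1 on chromosome 17 (31057694 to 31117984), Lpl on chromosome 8 (68880555 to 68906932), Ch25h on chromosome 19 (34473783 to 34475148) and Lrp1 on chromosome 10 (127538157 to 127621148).

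Lipid handling in a phagocyte runs in a cycle. ApoE is the main lipoprotein scaffold of the brain, made by astrocytes and by microglia, and it takes up cholesterol and phospholipid that the transporters ABCA1 and ABCG1 move out of the cell. LRP1, a large endocytic receptor, brings apoE particles and other ligands back in, and lipoprotein lipase, the product of Lpl, releases fatty acids from their triglycerides. CH25H hydroxylates cholesterol to an oxysterol that restrains sterol synthesis and can activate the liver X receptors (LXR), and SOAT1 esterifies cholesterol for storage in droplets. Apoe, Abca1 and Abcg1 are known LXR target genes.

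The sequence before the transcription start is shown for 3 of the 4 members that were lower in Ly6C-high than in Ly6C-low microglia and for Ch25h, which was high on 1 array. RefSeq promoters of build GRCm38.p6 were found for Abca1 (chr4:53159896-53160145), Apoe (chr7:19699189-19699438, the first of 3 listed starts), Lrp1 (chr10:127621149-127621398) and Ch25h (chr19:34475149-34475398), all on the minus strand. Each run holds the 250 bases before the start, 5′ to 3′ on the gene's strand, and capitals mark motif matches on either strand.
Abca1: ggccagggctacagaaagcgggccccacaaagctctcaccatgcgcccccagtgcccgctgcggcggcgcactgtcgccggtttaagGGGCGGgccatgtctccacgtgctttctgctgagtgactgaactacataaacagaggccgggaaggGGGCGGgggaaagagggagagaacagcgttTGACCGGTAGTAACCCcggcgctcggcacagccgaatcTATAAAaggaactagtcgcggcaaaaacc
Apoe: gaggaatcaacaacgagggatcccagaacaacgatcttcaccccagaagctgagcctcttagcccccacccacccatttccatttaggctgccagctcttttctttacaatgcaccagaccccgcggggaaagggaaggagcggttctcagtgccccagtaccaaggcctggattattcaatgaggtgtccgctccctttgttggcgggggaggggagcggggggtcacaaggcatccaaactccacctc
Lrp1: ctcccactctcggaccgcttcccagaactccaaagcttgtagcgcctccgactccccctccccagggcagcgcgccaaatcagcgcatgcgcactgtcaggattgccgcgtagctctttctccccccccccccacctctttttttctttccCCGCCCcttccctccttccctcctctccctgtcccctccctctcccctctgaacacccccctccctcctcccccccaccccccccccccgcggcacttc
Ch25h: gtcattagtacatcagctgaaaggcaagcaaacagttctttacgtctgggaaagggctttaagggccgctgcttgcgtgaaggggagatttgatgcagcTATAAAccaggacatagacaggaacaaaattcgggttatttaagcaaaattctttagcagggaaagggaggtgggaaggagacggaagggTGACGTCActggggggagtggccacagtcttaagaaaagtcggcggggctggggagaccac
The motifs searched were the direct repeat known to bind LXR with its partner RXR (DR4, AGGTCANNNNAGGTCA, up to 3 mismatches), the GC box GGGCGG, the cyclic AMP response element TGACGTCA and the TATA box TATAAA, and no 2 matches overlapped. The Abca1 run held 1 DR4 match with 3 mismatches, 67 to 52 bases before the start. It is printed on the gene's strand as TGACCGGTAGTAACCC, and the motif matches on the opposite strand. The run also held 2 GC boxes and a TATA box 29 bases before the start. The Lrp1 run held 1 GC box, and the Ch25h run held the cyclic AMP element 61 to 54 bases before the start. Its TATA box letters lay 151 to 146 bases before the start. Over 32851 listed promoters of the same length, 18.5% held the DR4 pattern, 32.7% the GC box, 1.55% the cyclic AMP element and 12.4% the TATA box. In the Apoe run these letters were not found. A match describes letters and does not by itself show binding, which was not tested.

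Values are deposited log2 intensities, given as mean ± SD of 3 arrays, and a difference of 1 on this scale is a 2-fold change. Differences carry a standard error (SE), and adjusted p-values (Benjamini-Hochberg, over all genes) come from limma, with calls made under 0.05. The files hold no detection or saturation calls. Pairs of arrays correlated at 0.872 to 0.924 across all 34760 probe sets among Ly6C-high microglia. This was below the range for Ly6C-low microglia (0.967 to 0.980) or monocytes (0.978 to 0.983). Of 15 homeostatic microglia markers 14 were measured, and their mean per array spanned 8.59 to 9.38 for Ly6C-high microglia, 11.26 to 11.70 for Ly6C-low microglia and 7.60 to 7.70 for monocytes. The 14 measured of 15 brain endothelium markers had means of 10.48 to 10.94, 6.29 to 7.68 and 6.19 to 6.32 in the same order. All 14 endothelium markers were higher and all 14 microglia markers lower in Ly6C-high than in Ly6C-low microglia, so the Ly6C-high arrays go in part against their label and the name here follows the sort. The 10 measured of 12 monocyte markers had means of 7.11 to 8.58, 6.66 to 6.83 and 9.98 to 10.19 in the same order. Of these, 2 were higher in Ly6C-high than in Ly6C-low microglia and 0 lower. Neutrophil markers, given below, were also highest in the spleen arrays, and the name monocytes follows the label. In bulk RNA, fewer cells of a type and less RNA per cell cannot be told apart.

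Between the brain sorts, Ly6C-high microglia were lower than Ly6C-low microglia in the carrier Apoe, both sterol exporters and the receptor Lrp1. These were 4 of the 6 measured members, beside 15.4% of all genes called in either direction (2185 of 19937 lower). No member was called higher by limma, beside 4.49% of all genes, and 0 were higher at an unadjusted p under 0.05. The median log2 fold change of the 6 was -1.20, and that of all genes 0.05. Arrays of these groups did not overlap for 5 of the 6 members and for 30.1% of all genes. Scaling moved the split of all calls: 29.1% were higher in Ly6C-high microglia on the deposited values, 41.7% after quantile normalization and 43.9% after cyclic loess.

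Lrp1 (probe set 10373223) had the largest difference of the 6. It stood at 7.35, 8.36 and 8.05 in Ly6C-high microglia, against 10.88, 10.66 and 10.70 in Ly6C-low microglia. Every Ly6C-high array lay below every Ly6C-low array. Lrp1 had a log2 fold change of -2.83 ± 0.23 (SE), 7.1-fold lower in Ly6C-high microglia (limma adjusted p = 1.18e-04).

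Abca1 (probe set 10512949), which loads lipid onto lipid-poor apolipoproteins, stood at 7.31, 7.46 and 8.07 in Ly6C-high microglia, against 9.89, 10.12 and 10.12 in Ly6C-low microglia. The groups were far apart, with Ly6C-high replicate 3 the nearest to the Ly6C-low arrays. Its log2 fold change was -2.43 ± 0.27 (SE), 5.39-fold lower (limma adjusted p = 6.00e-04). Abcg1 (probe set 10443730), which passes sterol on to lipidated particles, stood at 7.57, 7.47 and 7.52 in Ly6C-high microglia, against 8.85, 9.03 and 9.05 in Ly6C-low microglia. Both groups were tight, and Abcg1 had the smallest SE of the members. Abcg1 had a log2 fold change of -1.46 ± 0.10, 2.75-fold lower (limma adjusted p = 7.04e-05).

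Apoe (probe set 10560624) had the smallest difference of the 4 called. It stood at 11.31, 11.57 and 12.24 in Ly6C-high microglia, against 12.63, 12.64 and 12.70 in Ly6C-low microglia. The Ly6C-low arrays lay within 0.06 of each other, and the Ly6C-high arrays spread over 0.94, with replicate 3 highest. Apoe had a log2 fold change of -0.95 ± 0.22 (SE), 1.93-fold lower (limma adjusted p = 0.0188). This call ended under cyclic loess, where the log2 fold change was -0.51 (adjusted p = 0.177), and without Ly6C-low replicate 2 (-0.96, adjusted p = 0.0612) or replicate 3 (-0.93, adjusted p = 0.0697). Within Ly6C-high microglia, the homeostatic marker mean was 8.59, 8.63 and 9.38 in replicates 1 to 3, and Apoe and Abca1 were likewise highest in replicate 3. Endothelium markers (10.48, 10.68 and 10.94) and pericyte and smooth muscle markers (7.37, 7.24 and 8.36) also had their highest mean there, whereas Lrp1 was highest in replicate 2 and Abcg1 in replicate 1. The part of these markers in the result was not tested.

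Astrocytes also make apoE, and 11 astrocyte markers averaged 5.80 to 6.03 per array for Ly6C-high microglia, 5.68 to 6.07 for Ly6C-low microglia and 5.30 to 5.43 for monocytes. Between the brain sorts 1 of them, the gap junction gene Gja1, was higher in Ly6C-high microglia (log2 fold change 2.32, limma adjusted p = 0.00108) and 1, the glutamate transporter Slc1a3, was lower (-2.05, adjusted p = 3.55e-04). Of 10 border-associated macrophage markers 3 were lower and 0 higher (0 at an unadjusted p under 0.05 either), with list means of 6.06 to 6.48 in Ly6C-high against 6.62 to 7.52 in Ly6C-low microglia. The means of 10 neutrophil markers were 5.58 to 6.89 for Ly6C-high microglia, 6.27, 6.64 and 9.44 for Ly6C-low replicates 1, 2 and 3, and 10.30 to 10.84 for monocytes, above every brain array. Of these markers 9 were lower in Ly6C-high microglia and 6 in Ly6C-low microglia than in monocytes, and the part of these markers in the results was not tested.

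The remaining members did not pass between the brain sorts. Lpl (probe set 10572130) stood at 5.64, 5.36 and 5.53 in Ly6C-high microglia, against 5.68, 6.15 and 6.10 in Ly6C-low microglia. The arrays did not overlap, but the closest pair lay at 5.64 and 5.68. The log2 fold change was -0.47, with a 95% interval of -1.10 to 0.17 (limma adjusted p = 0.311). The spread in this fit includes the monocyte arrays, with an SD of 0.60 for Lpl, against 0.14 and 0.26 in Ly6C-high and Ly6C-low microglia. In a fit of only the 6 arrays compared, the SE was 0.17 rather than 0.28 (limma adjusted p = 0.167). Both brain means, 5.51 and 5.98, lay below the median of all gene means, 6.13.

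Ch25h (probe set 10467136) stood at 7.96, 4.88 and 5.27 in Ly6C-high microglia, against 5.42, 5.49 and 5.29 in Ly6C-low microglia. Ly6C-high replicate 1 lay far above every other array, while replicates 2 and 3 lay below the Ly6C-low arrays. With that array the log2 fold change was 0.64, with a 95% interval of -0.90 to 2.18 (limma adjusted p = 0.557), and without it -0.32 (adjusted p = 0.192). The Ch25h value in Ly6C-high microglia is thus the value of 1 array, and the other 8 arrays lay between 4.88 and 5.49. Those 8 values were below the median of all gene means, 6.13, and Ch25h was among the genes dropped when dim genes were left out.

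**Figure D1:**
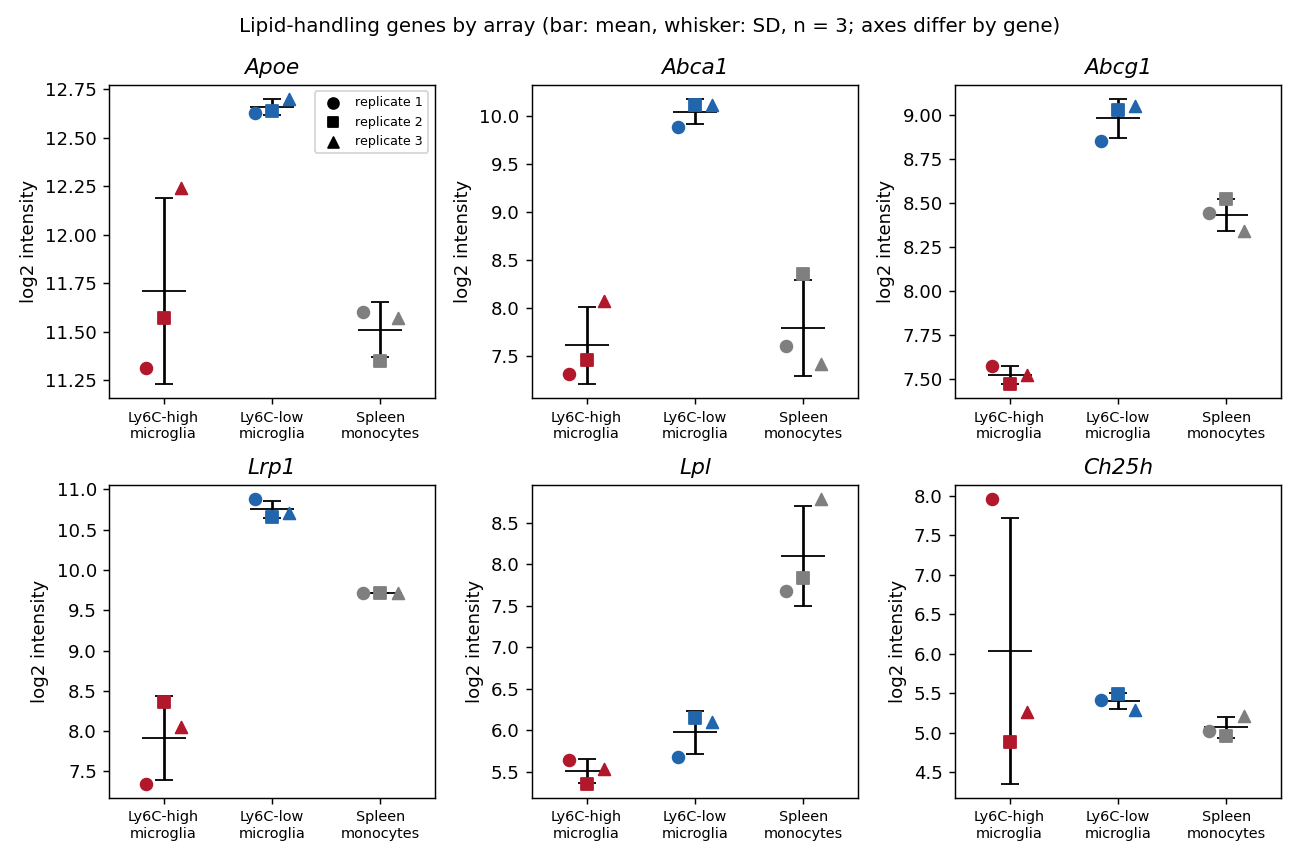
Log2 intensity of the 6 measured lipid-handling genes on each array (points, with the marker shape giving the replicate), with the mean (bar) and SD (whisker) of 3 arrays per group and a separate vertical axis per gene. Apoe, Abca1, Abcg1 and Lrp1 were highest in Ly6C-low microglia, Lpl in monocytes, and Ch25h was raised in Ly6C-high replicate 1 (7.96).

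Against spleen monocytes, Ly6C-high microglia were lower in 3 of 6 members, Abcg1, Lrp1 and Lpl, beside 14.6% of all genes called lower. By limma 0 were higher (0 at an unadjusted p under 0.05), beside 6.88% of all genes, and arrays did not overlap for 3 members and 45.9% of all genes. The comparison shares its Ly6C-high arrays with the one above and its monocyte arrays with the one below. The median log2 fold change was -0.54 for the members and 0.09 for all genes. Of all calls, 32.0% were higher in Ly6C-high microglia on the deposited values, 46.4% after quantile normalization and 45.0% after cyclic loess.

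Lpl stood at 5.64, 5.36 and 5.53 in Ly6C-high microglia, against 7.68, 7.84 and 8.79 in monocytes. Monocyte replicate 3 was the highest, and the groups were well separated. The log2 fold change was -2.59 ± 0.28 (SE), 6.03-fold lower in Ly6C-high microglia (limma adjusted p = 4.25e-04). Lrp1 stood at 7.35, 8.36 and 8.05 in Ly6C-high microglia, against 9.71 in each of the 3 monocyte arrays. The 3 monocyte values were identical to the last deposited digit, so the SD of 0.00 is no estimate of the spread between arrays. Genes with 3 identical values numbered 184 (0.923%) in monocytes, 258 (1.29%) in Ly6C-low microglia and 36 (0.181%) in Ly6C-high microglia. Lrp1 had a log2 fold change of -1.79 ± 0.23 (limma adjusted p = 9.49e-04), which was -1.12 under cyclic loess (adjusted p = 0.00136). The pooled SE of each Lrp1 difference in the main fit takes in the monocyte SD of 0.00. In a fit of only the 6 arrays compared here, the SE was 0.26 (limma adjusted p = 0.00742).

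Abcg1 averaged 7.52 ± 0.05 in Ly6C-high microglia and 8.43 ± 0.09 in monocytes, where the arrays read 8.44, 8.52 and 8.34. The difference of -0.91 ± 0.10 (SE) passed on the deposited values (limma adjusted p = 5.13e-04) and not after quantile normalization (-0.43, adjusted p = 0.0913) or cyclic loess (-0.38, adjusted p = 0.14).

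Apoe averaged 11.71 ± 0.48 in Ly6C-high microglia and 11.51 ± 0.14 in monocytes, where the arrays read 11.60, 11.35 and 11.57. The groups overlapped, and the difference of 0.20 had a 95% interval of -0.29 to 0.70 (limma adjusted p = 0.478). Under cyclic loess it was 1.00 and passed (adjusted p = 0.0155), and without Ly6C-high replicate 3 it was -0.07, so its size and sign were not settled by these arrays. Abca1 averaged 7.61 ± 0.40 in Ly6C-high microglia and 7.79 ± 0.50 in monocytes, with overlapping arrays and monocyte replicate 2 highest at 8.36. Its difference of -0.18 had a 95% interval of -0.80 to 0.45 (limma adjusted p = 0.621) and was positive under quantile normalization (0.24) and cyclic loess (0.39). Ch25h differed by 0.97, with a 95% interval of -0.57 to 2.51 (limma adjusted p = 0.291), and by 0.01 without Ly6C-high replicate 1.

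Ly6C-low microglia were higher than spleen monocytes in Apoe, Abca1, Abcg1 and Lrp1 and lower in Lpl. These were 4 of 6 members higher, beside 6.80% of all genes, and 1 lower, beside 7.71%. Arrays did not overlap for all 6 members, and for 42.3% of all genes. The median log2 fold change was 0.79 for the members and 0.05 for all genes.

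Abca1 had the largest of the positive differences. It stood at 9.89, 10.12 and 10.12 in Ly6C-low microglia, against 7.60, 8.36 and 7.42 in monocytes, so every Ly6C-low array exceeded the highest monocyte array. The log2 fold change was 2.26 ± 0.27 (SE), 4.77-fold higher (limma adjusted p = 8.15e-04). Apoe averaged 12.66 ± 0.04 in Ly6C-low microglia and 11.51 ± 0.14 in monocytes (log2 fold change 1.15 ± 0.22, 2.22-fold, limma adjusted p = 0.00809), a call that held in all 20 alternatives run for this contrast.

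Lrp1 stood at 10.88, 10.66 and 10.70 in Ly6C-low microglia, against 9.71 in every monocyte array (log2 fold change 1.03 ± 0.23, limma adjusted p = 0.0166). The Lrp1 call ended when any one monocyte array was left out (limma adjusted p = 0.0594, 0.0572 and 0.0516 without replicates 1, 2 and 3), or without Ly6C-low replicate 1 (0.0614) or replicate 3 (0.0505), although its size stayed between 0.97 and 1.08. Abcg1 was higher by the smallest amount of the 4, at 8.98 ± 0.11 in Ly6C-low microglia and 8.43 ± 0.09 in monocytes (log2 fold change 0.54 ± 0.10, limma adjusted p = 0.00814). With an intensity trend in the variance Abcg1 had an adjusted p of 0.0537.

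Lpl stood at 5.68, 6.15 and 6.10 in Ly6C-low microglia, against 7.68, 7.84 and 8.79 in monocytes, and both brain sorts thus lay below every monocyte array. The log2 fold change was -2.12 ± 0.28 (SE), 4.36-fold lower in Ly6C-low microglia (limma adjusted p = 0.00128). Ch25h averaged 5.40 ± 0.10 in Ly6C-low microglia and 5.07 ± 0.13 in monocytes. Its arrays did not overlap, and the difference of 0.33 did not pass (95% interval -1.21 to 1.87, limma adjusted p = 0.846), in a fit whose spread for this gene includes Ly6C-high replicate 1.

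**Figure D2:**
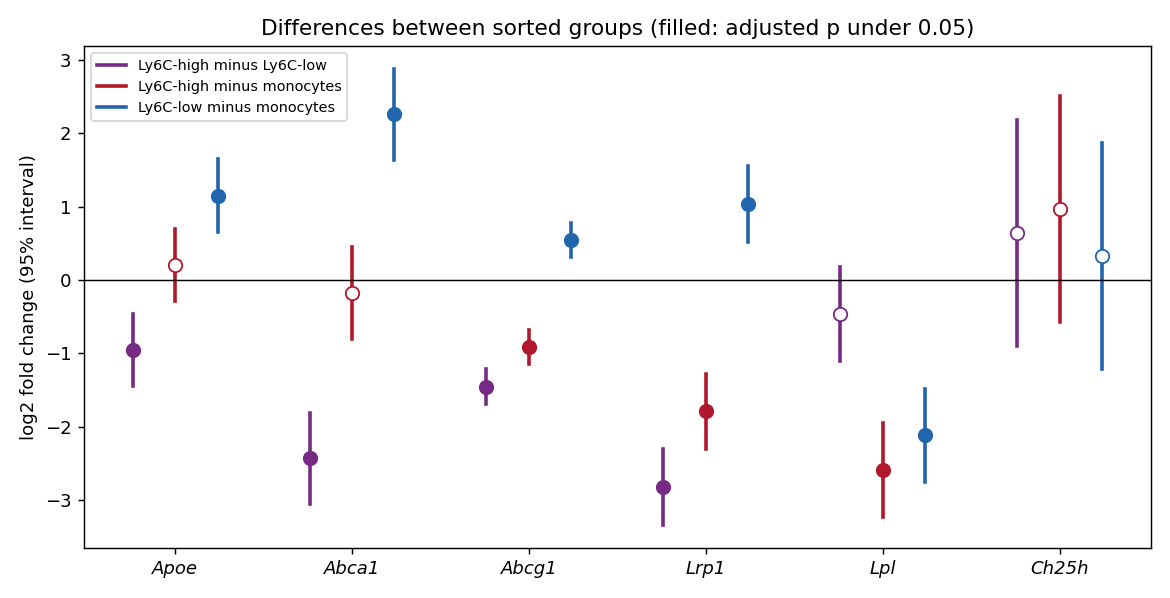
Log2 fold changes (points) with 95% intervals (lines) of the 6 genes for the 3 comparisons, first-named group minus the second, with filled points for an adjusted p under 0.05. Abca1 lies at -2.43, -0.18 and 2.26 and Lpl at -0.47, -2.59 and -2.12 for Ly6C-high minus Ly6C-low, Ly6C-high minus monocytes and Ly6C-low minus monocytes, and the Ch25h intervals all span 0.

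The order of the group means differed between members. For Lrp1 and Abcg1 it was Ly6C-high microglia, monocytes, Ly6C-low microglia from low to high, and each step passed the test on the deposited values. For Apoe and Abca1, Ly6C-low microglia were highest, and Ly6C-high microglia and monocytes did not differ beyond their spread. For Lpl, monocytes were highest, and the difference between the brain sorts did not pass, though their arrays did not overlap.

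The genes nearest to each member by Pearson correlation over the 9 arrays were taken from 9594 genes at or above the median mean level. The 9 points fall into the 3 sorted groups, so these values describe a shared group pattern. Lrp1 was most like the CD11b gene Itgam (r = 0.993), the dendritic cell activation antigen gene Cd83 (0.992) and the lipid phosphatase gene Inpp5d (0.991), and 127 genes exceeded 0.95. Abca1 was most like Tmem132a (0.984), the fatty acid receptor gene Gpr84 (0.982) and the TGF-beta receptor gene Tgfbr1 (0.980). Abcg1 was nearest to Mettl25 (0.995), Rufy3 (0.993) and the fatty acid synthase gene Fasn (0.990). Apoe was nearest to Baiap2 (0.976), the mannose phosphate isomerase gene Mpi (0.975) and the ion cotransporter gene Slc12a2 (0.974). Lpl was nearest to Lilra5 (0.989) and the MHC class II genes H2-Eb1 (0.982) and H2-Ab1 (0.981), which like Lpl were highest in monocyte replicate 3. Ch25h was nearest to Tcl1b1 (0.985), Lhb (0.981) and Adamts17 (0.981), each highest in Ly6C-high replicate 1, and without that array these correlations were 0.717, 0.629 and 0.619.

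The surrounding pathway was read from 8 lists, described by counts and medians with no test of a list. Each list count, like each marker count above, is to be read beside the share of all genes called in that comparison, given above. Several counts lie near that share, among them those of the exporter and oxysterol lists between the brain sorts. Such counts describe single genes and are no result about a pathway. Among 11 measured apolipoproteins and plasma lipid carriers, 3 were lower and 1 higher in Ly6C-high than in Ly6C-low microglia (median log2 fold change 0.12, against 0.05 for all genes). The phospholipid transfer protein gene Pltp averaged 11.65 ± 0.21 in Ly6C-high and 9.23 ± 0.43 in Ly6C-low microglia (log2 fold change 2.43, limma adjusted p = 2.80e-04). Apoa2, a lipoprotein component in plasma, was lower (-1.76, adjusted p = 9.99e-04), and so was Apoc1, an apolipoprotein whose gene lies in the Apoe cluster (-1.23, adjusted p = 0.0274, a call lost in 7 of 21 alternatives). Against monocytes, Pltp was higher in Ly6C-high microglia (2.77), as was Apod (1.58), and Apoc1 was lower (-2.34). In Ly6C-low microglia, levels exceeded those of monocytes for Apod (1.22) and Apoa2 (1.04), each lost in 4 of 20 alternatives, and Apoc1 was lower (-1.11, lost in 9 of 20 alternatives), the opposite direction to Apoe.

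Of 12 measured lipoprotein uptake receptors and their regulators, 2 were higher and 1 lower in Ly6C-high than in Ly6C-low microglia (median 0.09). Lrp8, an apoE and reelin receptor, was higher (8.53 ± 0.02 in Ly6C-high and 6.21 ± 0.32 in Ly6C-low microglia, log2 fold change 2.31, limma adjusted p = 1.09e-04), opposite in direction to Lrp1. Scarb1, the receptor for high-density lipoprotein, was higher too (1.48, adjusted p = 0.00215). Mylip, an LXR target whose product marks the LDL receptor for degradation, averaged 7.70 ± 0.72 in Ly6C-high and 10.16 ± 0.32 in Ly6C-low microglia (-2.45, adjusted p = 0.00164), the same direction as Abca1. In Ly6C-high microglia 4 of these 12 genes were lower than in monocytes and 1 was higher. The lower ones included Msr1 (-3.46), Cd36 (-3.41) and Olr1 (-3.03). In Ly6C-low microglia 6 of 12 were lower than in monocytes and 1 was higher. The lower ones there included Msr1 (-3.57), Olr1 (-3.11) and the sorting receptor gene Sorl1 (-3.06). The medians were -0.54 and -0.48, against 0.09 and 0.05 for all genes.

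Of 6 other measured exporters, 1 was called between the brain sorts. Abcb4, a phosphatidylcholine transporter, was lower in Ly6C-high than in Ly6C-low microglia (-1.21, limma adjusted p = 0.00103) and higher in Ly6C-low microglia than in monocytes (1.25, adjusted p = 7.90e-04). Abca7, a close relative of Abca1, was lower than in monocytes in Ly6C-high (-1.15, adjusted p = 0.015, lost in 3 of 20 alternatives) and Ly6C-low microglia (-0.96, adjusted p = 0.0393, lost in 8 of 20 alternatives), and Abcc1 was lower in both as well (-1.14 and -1.37).

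Among 10 measured partners and relatives of lipoprotein lipase, Lmf1, a chaperone that lipases need to mature, was lower in Ly6C-high than in Ly6C-low microglia (-1.31, limma adjusted p = 0.00254). Gpihbp1, which holds the lipase on capillary endothelium and was named here after its values were seen, averaged 7.04 ± 0.26 for Ly6C-high microglia, 6.69 ± 0.18 for Ly6C-low microglia and 6.95 ± 0.25 for monocytes, and no difference passed (adjusted p = 0.251, 0.702 and 0.456 for Ly6C-high against Ly6C-low, Ly6C-high against monocytes and Ly6C-low against monocytes). Angptl8 was higher in Ly6C-high microglia than in monocytes (0.88, adjusted p = 0.0173, lost in 2 of 20 alternatives). Between Ly6C-low microglia and monocytes limma called 0 genes of this list, and 2 had an unadjusted p under 0.05.

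In the list of oxysterol enzymes and LXR or RXR regulators, 2 of 13 measured genes were lower in Ly6C-high than in Ly6C-low microglia and 0 higher (1 at an unadjusted p under 0.05, median 0.08). They were Gpr183, the receptor for a dihydroxycholesterol made from the CH25H product (-2.48, limma adjusted p = 6.65e-04), and Rxra, a partner of LXR (-0.92, adjusted p = 0.0141, lost in 3 of 21 alternatives and as small as -0.58). Nr1h3, which encodes LXR alpha, was lower than in monocytes in Ly6C-high (-0.63, adjusted p = 0.02, lost in 3 of 19 alternatives) and Ly6C-low microglia (-0.86, adjusted p = 0.00547), and Pparg was lower in both (-1.31 and -1.65). Nr1h3 and the LXR targets Abca1, Abcg1 and Apoe had opposite directions between Ly6C-low microglia and monocytes. The other LXR gene, Nr1h2, was listed but not measured, and Nr1h3 was among the genes dropped when dim genes were left out. Whether the supply of LXR and the levels of its targets differ in direction was therefore not tested. Gpr183 was lower in Ly6C-high microglia than in monocytes (-1.30, lost in 3 of 20 alternatives and as small as -0.74) and higher in Ly6C-low microglia than in monocytes (1.18, lost in 6 of 20).

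Of 15 measured genes of cholesterol esterification, lipid droplets and hydrolysis, limma called 0 between the brain sorts, and 0 had an unadjusted p under 0.05 (median -0.08). Against monocytes, 5 were lower and 1 higher in each brain sort. Dgat1, which makes triglyceride, was lower in Ly6C-high (-1.97) and Ly6C-low microglia (-1.63), as was the lipase inhibitor gene G0s2 (-2.25 and -2.10). Hilpda, a droplet protein gene, was lower in Ly6C-low microglia (-1.32), and Mgll, a monoacylglycerol lipase gene, was higher in Ly6C-high microglia (1.81, adjusted p = 0.0384, lost in 8 of 20 alternatives).

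Intracellular sterol transport had the lowest list median between the brain sorts, -0.67 against 0.05 for all genes. Of 15 genes 6 were lower and 1 higher in Ly6C-high than in Ly6C-low microglia. The lower ones included Npc1, which exports cholesterol from lysosomes (7.57 ± 0.75 in Ly6C-high and 9.94 ± 0.40 in Ly6C-low microglia, -2.37), the oxysterol-binding protein gene Osbpl11 (-1.94) and Gramd1a, a carrier from plasma membrane to endoplasmic reticulum (-1.85). Against monocytes, 4 of 15 were higher and 1 lower in Ly6C-low microglia (median -0.12), and 2 higher and 5 lower in Ly6C-high microglia (median -0.82). In Ly6C-low microglia, levels exceeded those of monocytes for Npc1 (1.47, lost in 6 of 20 alternatives), Osbpl11 (1.26, lost in 1 of 20) and Osbpl1a (1.03, lost in 3 of 19). Ly6C-high microglia were lower than monocytes in Osbp (-1.06), Gramd1b (-1.08) and Npc2 (-1.34). These calls were lost in 2, 2 and 11 of 20 alternatives, with differences as small as -0.62, -0.58 and -0.58. The homeostatic marker means given above moved in the same direction between the brain sorts, and their part in these counts was not tested.

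Fatty acid uptake and binding had 1 gene higher and 1 lower of 11 between the brain sorts (median -0.23). Mfsd2a, a lysophospholipid transporter of brain endothelium, was higher in Ly6C-high than in Ly6C-low microglia (4.76, limma adjusted p = 1.48e-05), and the endothelium marker means were high in the same arrays. Acsl4, which activates polyunsaturated fatty acids, was lower in Ly6C-high microglia than in Ly6C-low microglia (-2.31, adjusted p = 6.55e-05) and monocytes (-1.81). The fatty acid-binding protein gene Fabp5 was lower than in monocytes in Ly6C-high (-1.41) and Ly6C-low microglia (-1.12).

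**Figure D3:**
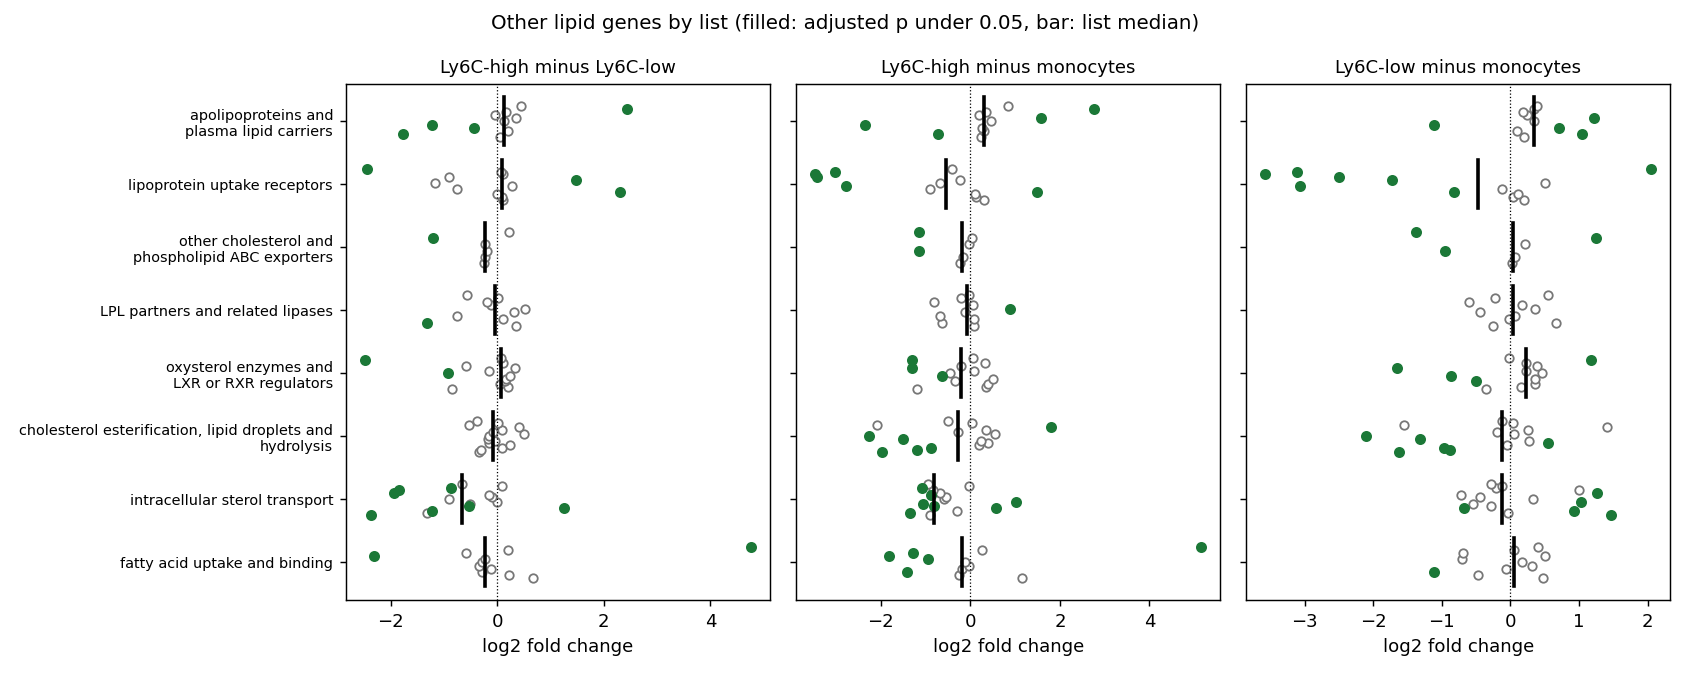
Log2 fold changes of the other lipid genes by list (points, filled for an adjusted p under 0.05) with the list median (black bar), for Ly6C-high minus Ly6C-low microglia, Ly6C-high microglia minus monocytes and Ly6C-low microglia minus monocytes. Sterol transport genes lie mostly to the left in the first panel (median -0.67), and the esterification and droplet list has no filled point there.

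**Figure D4:**
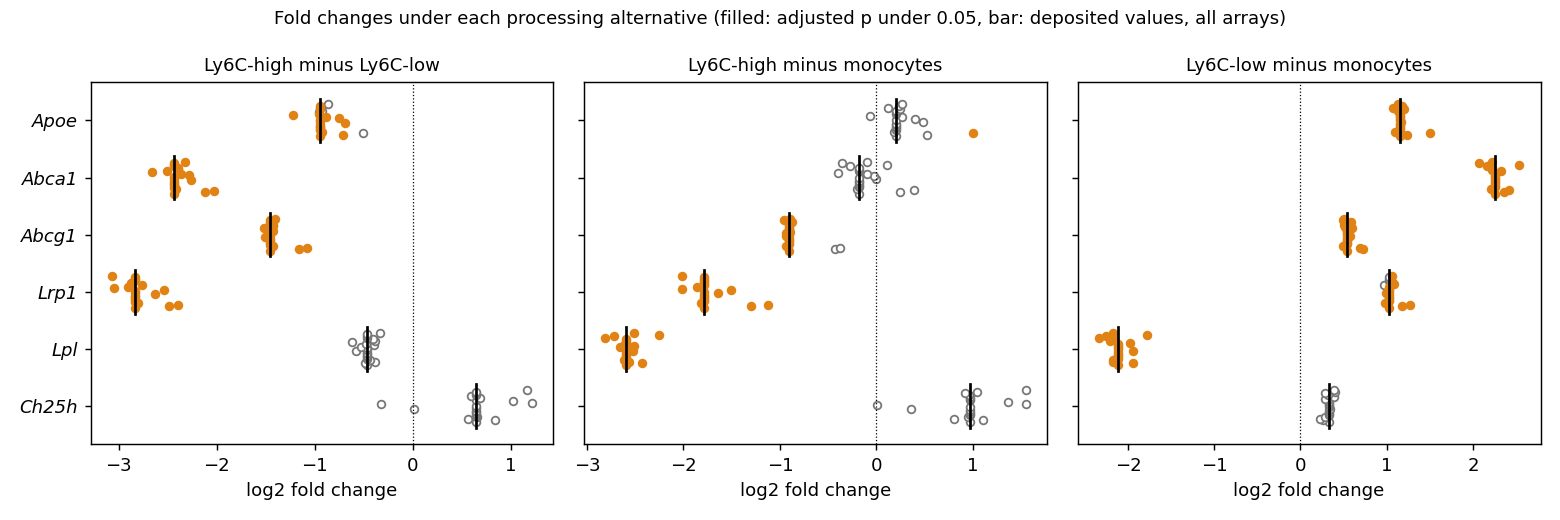
Log2 fold changes of the 6 measured genes under every processing alternative (points, filled for an adjusted p under 0.05), with a black bar at the value from all arrays as deposited, for each comparison. Abca1, Abcg1 and Lrp1 remain below 0 and filled throughout the first panel, Apoe reaches -0.51 without passing, and Ch25h spans -0.32 to 1.22.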

How the data were processed

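Gene expression was measured on 9 arrays with whole-transcript labelling for Affymetrix arrays, per the labels' protocols. The authors deposited 1 table of log2 intensities of 34760 probe sets, from 2.54 to 13.81, with array medians of 5.83 to 5.96. The submitters' processing notes name RMA and oligo; settings, versions and build were not given in the sources used here. RMA can compress the differences of dim genes. Platform annotation gave 21640 probe sets 1 symbol, and the brightest probe set by mean stood for a gene with several (954 of 19937 genes). The number of arrays limits the precision.

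Group means were fitted with limma 3.58.1 (lmFit, eBayes; R 4.3.3) on all 9 arrays, with two-sided Benjamini-Hochberg adjusted p-values over all genes. The code was tested on simulated data. The members and lists were chosen with earlier results of these data known. List genes were named by a rule of up to 3 per list and comparison, those with the largest absolute change past the test, besides single marker genes and Gpihbp1. Alternatives covered normalization, dim genes, probe sets, variance, blocks and left-out arrays. Promoters are RefSeq's, and Abcg1 and Lpl had no entry.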

Additional observations from a re-analysis of the deposited data

How the results depend on the processing

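Of 363 member differences recomputed under alternatives, 343 kept their direction and side of the threshold, 13 lost their call, 1 gained one and 6 changed sign, none of them called. The cause was not tested for any of these changes. Many alternatives could not move a member's fold change, so the count of 343 overstates how far direction was checked. They were the intensity trend, robust variance, probe set means, dim genes left out, the fit of 2 groups and the blocks. Leaving out an array of the group not compared could not move it either. In all of these only the p-value could change. Apoe between Ly6C-high and Ly6C-low microglia lost its call under cyclic loess (-0.51), in a fit of only the 6 arrays compared (-0.95) and with Ly6C-high replicate 2 and Ly6C-low replicate 3 both left out (-0.86), and ranged from -1.22 to -0.75 with single arrays left out. Against monocytes in Ly6C-high microglia, Apoe gained a call under cyclic loess (1.00) and ranged from -0.07 to 0.40 with single arrays left out. Abca1 there turned to 0.24 under quantile normalization, 0.39 under cyclic loess and 0.00 with array weights, and ranged from -0.40 to 0.11 with single arrays left out. Abcg1 there lost its call under quantile normalization (-0.43) and cyclic loess (-0.38). Ch25h between the brain sorts ranged from -0.32 to 1.22. Between Ly6C-low microglia and monocytes, Abcg1 lost its call with an intensity trend (0.54), and Lrp1 ranged from 0.97 to 1.08.

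The count of all genes called between the brain sorts, 3080, was 2038 in the fit of 6 arrays and 1956 to 3888 with single arrays left out, lowest without Ly6C-low replicate 3 and 2011 without replicate 2. For Ly6C-high microglia against monocytes the count of 4290 ranged from 2505 (without monocyte replicate 1) to 6091, and for Ly6C-low microglia against monocytes that of 2894 ranged from 1864 (without monocyte replicate 1) to 3778, with 4614 in the fit of 6 arrays and 5738 with array weights. Members called stayed at 3 to 4, 2 to 3 and 4 to 5 in the 3 comparisons. Of 55 named list differences 37 kept their call in every alternative run for them, and none reversed.

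Replicates with the same title number deviated with r = 0.301, 0.153 and -0.032 between the brain sorts, so these numbers are not taken to pair the samples. With the replicate number as a block, 2973, 4295 and 2795 genes and 4, 3 and 5 members were called in the 3 comparisons. The labels' descriptions carry another number, and 2 of these are shared between the brain sorts: 8 by replicate 1 of each, and 11 by Ly6C-high replicate 2 and Ly6C-low replicate 3. These pairs had r = 0.301 and 0.21, the highest among all pairs of arrays between the brain sorts, with 0.153 the next. What the number marks is not stated, and the main fit holds no block for it. With the description number as a block, 3951 genes and 4 members were called between the brain sorts. Averaging the probe sets of a gene was run; reading each other probe set of a member was not, since no measured member has a second single-symbol one.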
